A study of Homo sapiens with 6 samples.

Results

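The genes described here were those of the RNA exosome, with DIS3 as the main one. They were 10 of the 62252 genes in the files and were chosen by name as DIS3, DIS3L, DIS3L2, EXOSC2, EXOSC3, EXOSC5, EXOSC8, EXOSC9, EXOSC10 and MTREX. GENCODE release 44 gave them 153 of the 251612 transcripts matched, and 17 of the 153 were at 0 in every library.

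RNA came from K562, an established erythroleukemia line. The cells had taken up lentivirus carrying a hairpin against luciferase (shCtrl) or against PCBP1 (shPCBP1), a protein that binds C-rich RNA. Both groups shared overnight exposure to virus with 8 µg/ml polybrene and then 4 days in 3 µg/ml puromycin before poly-A RNA was taken, and each group had 3 libraries. A single hairpin stood for each condition, and no source stated that replicates were separate transductions, so p-values measure only the spread between these samples. Normalized counts of PCBP1 fell from 40566, 38409 and 37799 to 6625, 7277 and 7221 with shPCBP1, and these did not overlap. The erythroid genes GATA1 (203 to 217 TPM) and HBG1 (7260 to 8690 TPM) were present in all libraries, while CD3E of T cells reached at most 0.117 TPM. Library totals ran from 67066747 to 140522444 estimated counts, and the shCtrl libraries included the largest totals. TPM is a relative level scaled by effective transcript length. In bulk RNA, a lower level can be fewer cells that express a gene or less RNA per cell, and these cannot be told apart.

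The RNA exosome is a barrel of ring and cap subunits that threads RNA to an attached nuclease. DIS3 is the processive exonuclease of the nuclear complex and also carries an endonuclease domain called PIN, while EXOSC10 is a second nuclear exonuclease and DIS3L takes the place of DIS3 in the cytoplasm. DIS3L2 is related to DIS3 but works without the exosome on RNAs with added uridines, and the helicase MTREX unwinds nuclear RNA and feeds it to the complex. The complex trims ribosomal and small nucleolar RNA precursors and removes short-lived nuclear transcripts.

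The sequences that separate the DIS3 forms are shown first, because the DIS3 results turn on them. Both exons lie on the minus strand of GRCh38 (hg38). The long-form exon has 158 bases (chr13:72780846-72781003) and the short-form exon has 68 bases (chr13:72781289-72781356). Bases are printed in the sense of the RNA. Capitals mark runs of 3 or more C in that sense, shown because PCBP1 binds such RNA. The 50 intronic bases before each exon are also given.
DIS3 long-form exon: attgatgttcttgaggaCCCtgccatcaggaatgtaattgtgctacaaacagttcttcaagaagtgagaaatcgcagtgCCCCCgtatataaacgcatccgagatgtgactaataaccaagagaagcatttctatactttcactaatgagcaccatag
DIS3 long-form exon, upstream: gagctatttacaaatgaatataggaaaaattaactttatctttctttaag
DIS3 short-form exon: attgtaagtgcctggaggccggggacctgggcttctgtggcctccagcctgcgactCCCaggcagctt
DIS3 short-form exon, upstream: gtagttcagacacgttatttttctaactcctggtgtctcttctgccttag

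The long exon replaces the short one with 90 more bases, which keep the reading frame and add 30 codons. Both exons together have 226 bases, which leave a remainder of 1 when divided by 3. A transcript with both holds 158 bases more at this site than one with the short exon alone. It holds 68 more than one with the long exon alone, and each of these numbers leaves a remainder of 2. C made up 10% of the bases upstream of the long exon and 24% upstream of the short exon, and neither stretch held CCC. Over 77677 annotated exons that some transcript of the same gene skips, the median was 22% C (quartiles 16% and 30%). Of these stretches, 45.4% held CCC in the sense of the RNA, and 56.6% held CCC or GGG, the same letters read on either strand.

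A further exon is shown because its absence marks an EXOSC10 transcript that DESeq2 on counts called. It has 75 bases on the minus strand (chr1:11073934-11074008), and capitals have the same meaning.
EXOSC10 exon: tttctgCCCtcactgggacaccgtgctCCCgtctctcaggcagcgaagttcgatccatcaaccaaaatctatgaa
EXOSC10 exon, upstream: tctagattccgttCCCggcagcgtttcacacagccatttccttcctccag

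The EXOSC10 stretch was 38% C with CCC, above the upper quartile of all such exons. Across all 60 annotated exons of the 10 genes that some transcript skips, the upstream median was 21% C (6% to 58%), and 23 (38.3%) held CCC. These counts describe letters in a window and not binding.

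The amount of DIS3 RNA was nearly level between the groups, while the mix of its forms differed by about 5 percentage points. DIS3 (ENSG00000083520.15, chr13:72752169-72782096, minus strand) gave 7725, 7252 and 8122 normalized counts in the shCtrl libraries and 7707, 7836 and 7515 in the shPCBP1 libraries. All 3 shPCBP1 values lay inside the shCtrl range. The log2 fold change was -0.0033 (SE 0.0497, 95% interval -0.10 to 0.094, DESeq2 adjusted p 0.973). BORA overlaps DIS3 on the opposite strand over 1180 of its 10835 exonic bases, and whether the counting used strand was not given in the sources used here.

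DIS3 had 5 annotated transcripts, of which ENST00000475871.1 was listed at 0 throughout. The reference long form, ENST00000377767.9, codes for 958 residues and was scarce, with TPM of 1.16, 1.28 and 1.25 in shCtrl and of 1.34, 1.14 and 1.24 in shPCBP1. The groups overlapped for this form, and most TPM with the long exon came from another transcript. That was ENST00000490646.1, annotated as a target of nonsense-mediated decay (the surveillance that removes RNAs with an early stop), which also lacks a further exon of 85 bases (chr13:72770904-72770988). Its TPM was 10.5, 8.39 and 9.84 in shCtrl and 11.01, 11.6 and 10.9 in shPCBP1, higher in all 3 shPCBP1 libraries (log2 difference 0.22, SE 0.103, limma adjusted p 0.304).

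The short form, ENST00000377780.8, codes for 928 residues. It had TPM of 6.93, 6.85 and 7.95 in shCtrl and of 6.05, 6.56 and 6.10 in shPCBP1, so every shPCBP1 library was lower than every shCtrl library. The log2 difference was -0.21 (SE 0.101), and it did not pass (limma adjusted p 0.323). The form with both exons, ENST00000545453.5, codes for 796 residues from a start downstream of both exons and had overlapping TPM of 5.88, 6.33 and 5.85 in shCtrl and of 5.997, 6.44 and 6.47 in shPCBP1.

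Transcripts with the long exon alone made up 44.8% ± 2.68 of DIS3 TPM in shCtrl and 49.7% ± 0.785 in shPCBP1 (SD, n = 3). The short exon alone made up 30.1% ± 1.82 and 24.99% ± 0.434, and both exons together 25.1% ± 2.30 and 25.3% ± 0.835. The first 2 shares did not overlap between groups and the last one did. Most of the share with the long exon alone was the decay-target ENST00000490646.1, at 39.7% ± 3.11 in shCtrl and 44.8% ± 0.566 in shPCBP1.

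**Figure D1:**
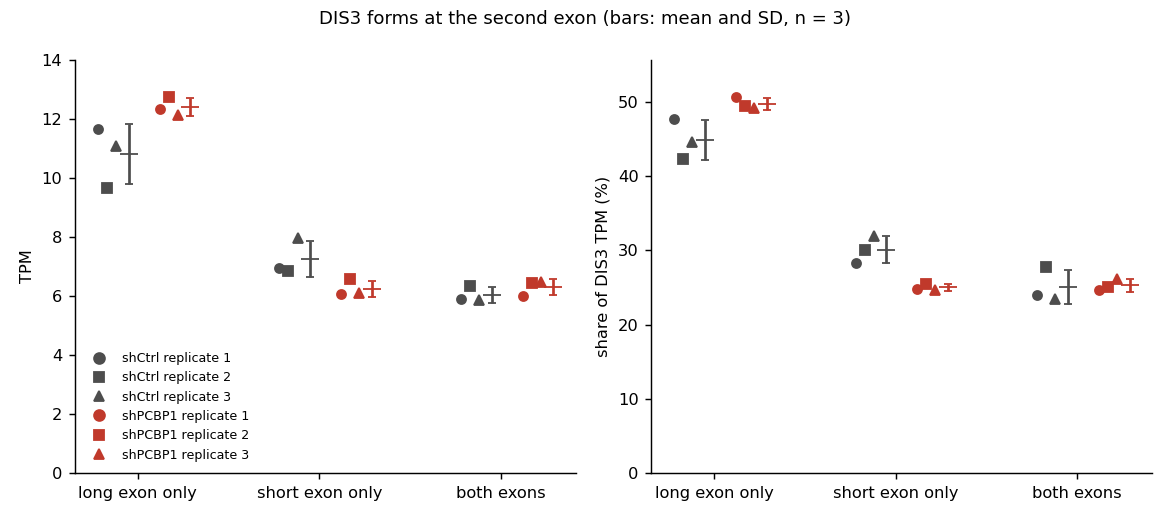
DIS3 transcripts by second-exon form in each of the 6 libraries, as TPM (left) and as a percent of DIS3 TPM (right). Points are libraries and bars are the mean and SD (n = 3). The shPCBP1 points lie above all shCtrl points for the long exon alone and below them for the short exon alone, and they mix for the form with both exons.

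The percent spliced in (PSI) of the long exon, its share among transcripts that hold or skip it, was 71.7, 70.0 and 68.0 in shCtrl and 75.2, 74.5 and 75.3 in shPCBP1. Every shPCBP1 library was higher. The difference was 5.09 points, with a two-sided exact permutation p of 0.1, the smallest that 3 against 3 libraries allow. In the model over all 56679 exons tested, the log2 ratio of inclusion to skipping differed by 0.36 (SE 0.157, limma adjusted p 0.509).

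The value depended on which forms were set against each other. Long alone against short alone had means of 59.8% ± 2.51 in shCtrl and 66.6% ± 0.558 in shPCBP1 (SD, n = 3), a difference of 6.73 points. Both exons against short alone had means of 45.4% and 50.3%, a difference of 4.84 points, and this is the pair that an assay primed in the short exon can see. The forward primer listed by the study for its DIS3 RT-PCR lies in the short exon printed above. The study showed that assay for cells with and without iron chelation, not for these groups. Each comparison of forms above had non-overlapping groups and an exact permutation p of 0.1. After Benjamini-Hochberg adjustment over the 5 DIS3 quantities tested, that p was 0.125. The share with both exons differed by 0.192 points (exact permutation p 0.9). All forms depend on how Salmon divided reads between transcripts that share most of their sequence.

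The 85-base DIS3 exon had a PSI of 60.3% ± 3.11 in shCtrl and 55.2% ± 0.566 in shPCBP1 (SD, n = 3), lower in all 3 shPCBP1 libraries (limma adjusted p 0.606). Its inclusion is the same quantity as the protein-coding share of DIS3 TPM, since only the decay-target transcript skips it. That transcript also holds most of the share with the long exon alone, so the differences are not separate. Coding TPM summed to 14.0, 14.5 and 15.1 in shCtrl and to 13.4, 14.1 and 13.8 in shPCBP1, and overlapped. Counted over coding transcripts alone, DIS3 decreased by 0.13 on the log2 scale and passed (DESeq2 adjusted p 0.0429).

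At the gene level, none of the 10 genes passed an adjusted p under 0.05 in the DESeq2 Wald test. An unadjusted p under 0.05 was seen for 2 of the 10, beside 6749 of the 17095 genes with an adjusted p. Across all genes with an adjusted p, 5332 of 17095 (31.2%) passed, 17.7% higher and 13.5% lower in shPCBP1, and 1.37% also exceeded an absolute log2 fold change of 1 with a mean count over 10. The edgeR quasi-likelihood test also called 0 of the 10, beside 4593 of all 28848 genes it tested. It put 1 of the 10 under an unadjusted p of 0.05, and the share of all genes there was not counted. The log2 fold changes ran from -0.10 to 0.12 with a median of 0.013, beside a median of 0.0019 for all genes with an adjusted p. Of the 10 values, 5 were above 0.

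**Figure D2:**
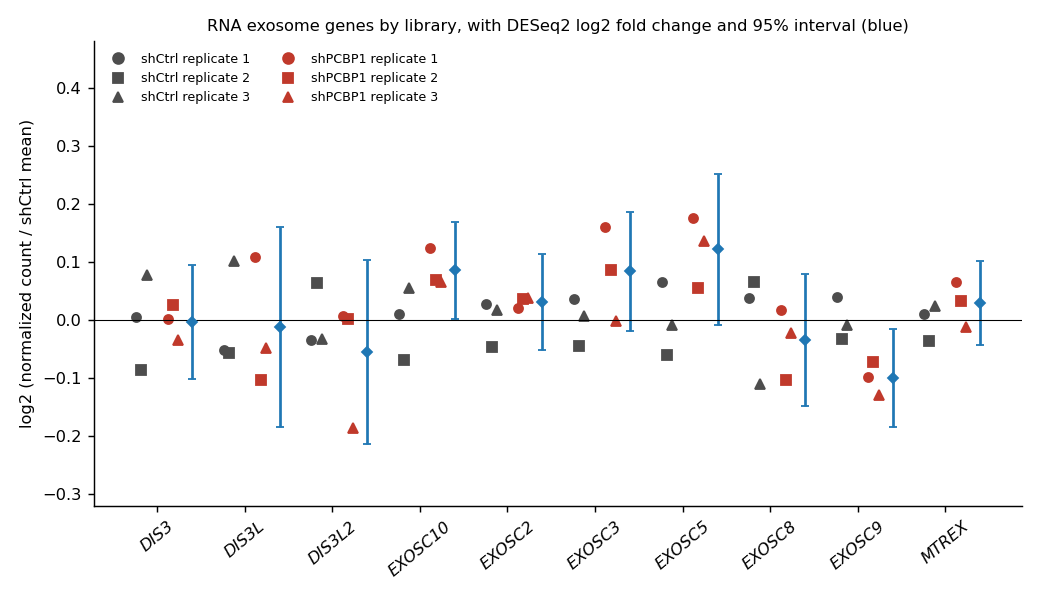
Normalized count of each of the 10 genes in each library, as log2 relative to the shCtrl mean. Grey and red points are libraries, and blue diamonds with bars are DESeq2 log2 fold changes with 95% intervals. Every point lies within 0.2 of the shCtrl mean, and only EXOSC9 and EXOSC10 have groups that do not overlap. The share of all genes without overlap was not counted.

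Among the nucleases, EXOSC10 (ENSG00000171824.14) had 12448, 11792 and 12854 normalized counts in shCtrl and 13474, 12966 and 12947 in shPCBP1. All shPCBP1 libraries were higher, by 6.15% in the mean. The log2 fold change was 0.086 (SE 0.0427, 95% interval 0.0023 to 0.17, DESeq2 adjusted p 0.115). Without shCtrl replicate 3 it passed (log2 fold change 0.12, DESeq2 adjusted p 0.0331). The long noncoding RNA ENSG00000226849 overlaps it on the opposite strand over 2196 of 5991 exonic bases.

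DIS3L, the cytoplasmic nuclease, had 1459, 1454 and 1621 normalized counts in shCtrl and 1630, 1408 and 1461 in shPCBP1, and the groups overlapped (log2 fold change -0.012, SE 0.0877, DESeq2 adjusted p 0.945). DIS3L2 had 1671, 1789 and 1674 against 1719, 1713 and 1504, also overlapping (log2 fold change -0.054, SE 0.0810, DESeq2 adjusted p 0.676). Their 95% intervals of -0.18 to 0.16 and -0.21 to 0.10 were the widest of the 10 genes, at the lowest counts.

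Of the ring subunits, EXOSC9 (ENSG00000123737.13) had 8715, 8289 and 8422 normalized counts in shCtrl and 7920, 8059 and 7747 in shPCBP1, lower in all shPCBP1 libraries. The log2 fold change was -0.10 (SE 0.0428, 95% interval -0.18 to -0.016, DESeq2 adjusted p 0.0600). It passed without shCtrl replicate 2 (DESeq2 adjusted p 0.0341), with TMM factors (0.0244), over genes with a mean count above 50 (0.0252) and over coding transcripts alone (log2 fold change -0.18, DESeq2 adjusted p 0.000836). Coding TPM of EXOSC9 was 60.9 ± 0.996 in shCtrl and 55.2 ± 1.95 in shPCBP1 (SD, n = 3), without overlap. CCNA2 overlaps it on the opposite strand over 254 exonic bases.

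EXOSC5, another ring subunit, had the highest log2 fold change of the 10, 0.12 (SE 0.0662, 95% interval -0.0079 to 0.25, DESeq2 adjusted p 0.157). Its counts were 2581, 2365 and 2450 in shCtrl and 2784, 2561 and 2708 in shPCBP1, which overlapped between shCtrl replicate 1 and shPCBP1 replicate 2. EXOSC8 overlapped more widely, with 5627, 5730 and 5077 against 5545, 5103 and 5396 (log2 fold change -0.034, SE 0.0580, DESeq2 adjusted p 0.724). SUPT20H overlaps EXOSC8 on the opposite strand over 2138 of 13092 exonic bases.

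The cap subunits, which bind RNA at the entry of the barrel, also overlapped between groups. EXOSC2 had 8435, 8005 and 8369 normalized counts in shCtrl and 8392, 8485 and 8491 in shPCBP1 (log2 fold change 0.031, SE 0.0420, DESeq2 adjusted p 0.632). EXOSC3 had 6452, 6094 and 6319 against 7032, 6676 and 6285 (log2 fold change 0.084, SE 0.0519, DESeq2 adjusted p 0.228), with shPCBP1 replicate 3 inside the shCtrl range. With transcript length offsets EXOSC3 passed (log2 fold change 0.19, DESeq2 adjusted p 0.0404).

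MTREX, the helicase, had the highest counts of the 10, with 19149, 18555 and 19342 in shCtrl and 19911, 19448 and 18863 in shPCBP1. The groups overlapped (log2 fold change 0.029, SE 0.0368, DESeq2 adjusted p 0.607). With transcript length offsets its log2 fold change was 0.26 and it passed (DESeq2 adjusted p 0.000692), whereas over coding transcripts alone the value was -0.088 (adjusted p 0.198).

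Levels between genes were compared on the TPM scale, summed over all transcripts of a gene and averaged over the 6 libraries. EXOSC3 was highest at 112 (100.9 to 123), with MTREX next at 91.4 (78.3 to 104.5), and their ranges overlapped. EXOSC10 followed at 70.6 (68.3 to 74.6), then EXOSC9 at 69.2 (65.5 to 73.8) and EXOSC8 at 62.5 (58.2 to 66.0), and each of these overlapped the next. EXOSC2 at 43.999 (42.7 to 45.6), EXOSC5 at 38.6 (36.6 to 41.0) and DIS3 at 24.5 (22.9 to 25.7) each stood clear of their neighbours. DIS3L at 7.47 (6.45 to 8.09) and DIS3L2 at 7.03 (6.51 to 7.69) were lowest and overlapped.

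The order changed when only protein-coding transcripts were summed. Their share of TPM averaged 46.5% for MTREX, 53.3% for EXOSC2, 57.1% for EXOSC3 and 57.7% for DIS3, but 95.7% for EXOSC5. Coding TPM averaged 63.8 for EXOSC3, 58.0 for EXOSC9, 55.1 for EXOSC10, 50.3 for EXOSC8, 42.5 for MTREX, 36.9 for EXOSC5 and 23.4 for EXOSC2. DIS3 stood at 14.1 coding TPM (13.4 to 15.1), DIS3L2 at 6.09 (5.32 to 6.70) and DIS3L at 4.86 (4.41 to 5.30). MTREX, next to the top over all transcripts, thus lay below EXOSC8 in coding TPM, and its coding range of 40.04 to 45.03 did not reach the EXOSC8 minimum of 46.0.

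**Figure D3:**
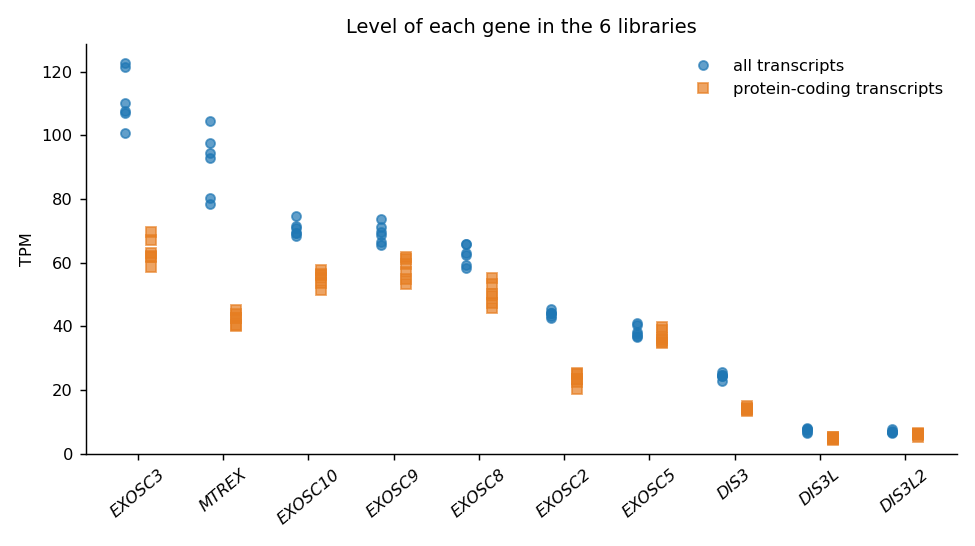
TPM of each gene in the 6 libraries, over all transcripts (blue circles) and over protein-coding transcripts (orange squares), ordered by the mean over all transcripts. EXOSC5 shows almost no gap between the series, while MTREX falls from 91.4 to 42.5 in the mean.

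Of the 153 transcripts, 63 reached a mean of 0.5 TPM, and 0 of these passed in limma on log2(TPM + 0.1), beside 2.71% of all 61505 transcripts tested. There were 9 of the 63 at an unadjusted p under 0.05, beside 11660 of all 61505. DESeq2 on the estimated counts of transcripts called 10 of 113 (8.85%), 5 higher and 5 lower, beside 9.27% of all transcripts, so neither test called a larger share than the background. Of 30 transcripts tested for their share within the gene, 0 passed in limma (background 0.782%). An unadjusted p under 0.05 was seen for 4 of the 30, beside 5290 of all 38515 shares tested. Transcripts outside DIS3 named below made up at least 10% of their gene on average, except those called by DESeq2 on counts at a lower share, which were chosen after their values were seen.

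The EXOSC10 transcript ENST00000304457.11 lacks the 75-base exon printed above and codes for 860 residues in place of 885. Its TPM was 0.156, 0.220 and 0.522 in shCtrl and 1.71, 1.18 and 1.60 in shPCBP1. Every shPCBP1 value lay well above the highest shCtrl value. The log2 difference was 2.09 (SE 0.442, limma adjusted p 0.0705), and DESeq2 on counts called it (log2 fold change 2.32, adjusted p 0.000150). The form stayed rare, since the exon had a PSI of 99.5% ± 0.317 in shCtrl and 97.5% ± 0.450 in shPCBP1 (SD, n = 3, limma adjusted p 0.175). The main EXOSC10 transcript, ENST00000376936.9, had 53.1 ± 1.63 and 55.2 ± 0.626 TPM (SD, n = 3), higher in all shPCBP1 libraries (limma adjusted p 0.495).

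EXOSC10 ENST00000474216.5, annotated as a retained intron, had the opposite sign. Its TPM was 3.84, 4.36 and 4.73 in shCtrl and 2.90, 3.50 and 3.25 in shPCBP1, lower in all shPCBP1 libraries. The log2 difference was -0.41 (SE 0.140, limma adjusted p 0.189), and DESeq2 on counts called it (adjusted p 0.0454).

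Of the EXOSC9 transcripts above a share of 10%, the longer coding form had the larger difference. ENST00000379663.7, which codes for 456 residues, had TPM of 20.2, 21.0 and 23.6 in shCtrl and of 16.5, 16.2 and 16.6 in shPCBP1, with no overlap. The log2 difference was -0.39 (SE 0.0746, limma adjusted p 0.0543), which passed over transcripts with a mean of at least 2 TPM (0.0282) and in DESeq2 on counts (0.000451). The main transcript ENST00000243498.10, which codes for 439 residues, had overlapping TPM of 41.1, 37.9 and 36.9 in shCtrl and of 35.2, 39.1 and 37.9 in shPCBP1.

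In MTREX a short transcript varied far more than the full-length one. ENST00000503165.5 (571 bases, no defined coding sequence) had TPM of 9.69, 20.1 and 7.59 in shCtrl and of 24.6, 21.9 and 34.4 in shPCBP1. All shPCBP1 libraries were higher, but shCtrl replicate 2 lay close to them. The log2 difference was 1.21 (SE 0.372, limma adjusted p 0.157), while DESeq2 on counts called it (log2 fold change 1.14, adjusted p 0.0407). Its share of MTREX TPM was 14.4% ± 6.31 and 27.1% ± 5.17 (SD, n = 3). This transcript was lowest in the largest libraries, shCtrl replicates 1 and 3, which held 126567836 and 140522444 estimated counts. Totals were 83033656 in shCtrl replicate 2 and 85121124, 79189195 and 67066747 in the shPCBP1 libraries. The part of depth in this result was not tested.

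The full-length MTREX transcript ENST00000230640.10 was steadier, with TPM of 43.4, 39.7 and 44.4 in shCtrl and of 42.1, 42.0 and 39.6 in shPCBP1, which overlapped (limma adjusted p 0.741). ENST00000506750.5, annotated as a decay target, had 22.9, 25.5 and 22.0 TPM in shCtrl and 25.6, 25.7 and 26.1 in shPCBP1 (log2 difference 0.14, SE 0.0678, limma adjusted p 0.334). Total MTREX TPM was 83.8 ± 7.82 in shCtrl and 98.9 ± 5.15 in shPCBP1 (SD, n = 3) and did not overlap, unlike its normalized counts.

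**Figure D4:**
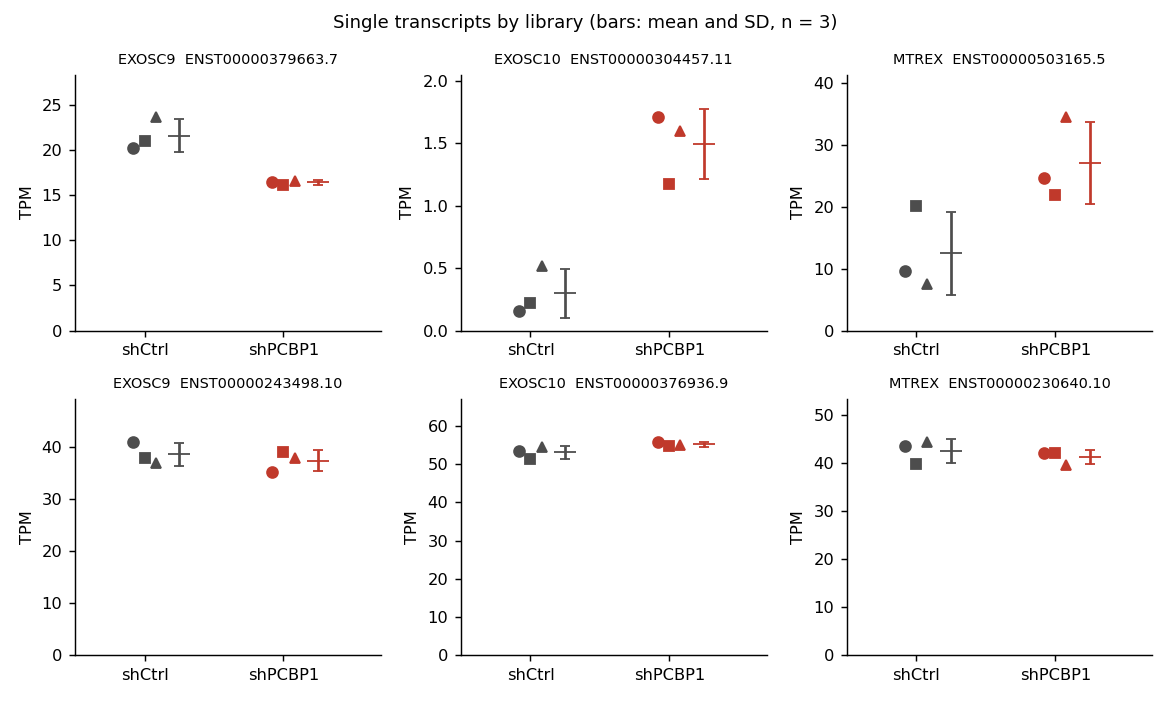
TPM of single transcripts of EXOSC9, EXOSC10 and MTREX in each library, with a transcript called by DESeq2 on counts on top and the main transcript of the same gene below. Points are libraries and bars are the mean and SD (n = 3). The groups separate in each top panel, while below they overlap for EXOSC9 and MTREX and lie close together for EXOSC10.

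EXOSC3 had its RNA spread over 3 transcripts. The main one, ENST00000327304.10, had 31.0, 31.9 and 31.2 TPM in shCtrl and 32.6, 31.7 and 29.9 in shPCBP1, which overlapped. ENST00000396521.3, which lacks an exon of 152 bases and codes for 164 residues in place of 275, had 30.9, 26.7 and 31.8 against 37.1, 35.3 and 32.3 (log2 difference 0.23, SE 0.0868, limma adjusted p 0.227). ENST00000489414.5, of 535 bases and without a defined coding sequence, had 43.0, 38.2 and 40.7 against 46.1, 46.7 and 44.9 (log2 difference 0.18, SE 0.0550, limma adjusted p 0.163). Both were higher in all shPCBP1 libraries. A coding gene without a symbol, ENSG00000255872, overlaps EXOSC3 on the same strand over 205 exonic bases, so reads there could be divided between them.

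The main EXOSC8 transcript, ENST00000389704.4, had 44.5, 42.6 and 43.1 TPM in shCtrl and 48.3, 46.1 and 50.2 in shPCBP1, higher throughout (log2 difference 0.15, SE 0.0476, limma adjusted p 0.164). Coding transcripts held 77.7% ± 1.48 of EXOSC8 TPM in shCtrl and 83.2% ± 2.14 in shPCBP1, and decay targets held 10.1% ± 1.80 and 6.29% ± 1.55 (SD, n = 3), both without overlap. In DIS3 the decay-target share was higher in all shPCBP1 libraries, at 39.7% ± 3.11 and 44.8% ± 0.566. For DIS3L it was 8.79% ± 3.33 and 1.37% ± 1.41, for MTREX 28.1% ± 0.471 and 26.4% ± 1.22, and for EXOSC3 0.935% ± 0.0437 and 0.506% ± 0.136, each lower in all shPCBP1 libraries. In MTREX only the share was lower. The TPM of its main decay target, ENST00000506750.5, was higher in all shPCBP1 libraries, at 23.5 ± 1.81 in shCtrl and 25.8 ± 0.243 in shPCBP1. Total MTREX TPM was higher as well. EXOSC2 had 27.4% ± 4.92 and 23.4% ± 2.16, EXOSC9 8.84% ± 1.00 and 9.99% ± 0.317, and DIS3L2 7.48% ± 0.816 and 8.51% ± 1.695, each with overlap. Summed shares by annotation class are descriptions and had no test of their own, and for DIS3, where the class is 1 transcript, the share test gave a limma adjusted p of 0.520.

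In the remaining genes the main transcripts overlapped between the groups. EXOSC5 ENST00000221233.9 had 34.9, 34.0 and 33.9 TPM in shCtrl and 38.7, 34.4 and 37.0 in shPCBP1, where shPCBP1 replicate 2 fell inside the shCtrl range. EXOSC2 ENST00000372358.10 had 19.2, 16.8 and 22.2 against 22.4, 18.5 and 21.0. DIS3L ENST00000319212.9 had 4.32, 3.97 and 4.34 against 5.03, 4.31 and 4.61, and DIS3L2 ENST00000325385.12 had 4.74, 5.10 and 4.64 against 4.50, 5.13 and 3.98. In these 4 transcripts the limma adjusted p lay at 0.416, 0.735, 0.561 and 0.745 in that order. The other EXOSC2 and DIS3L transcripts above a share of 10% also overlapped, with ENST00000691284.1 at 3.94 to 5.06 TPM, ENST00000691104.1 at 3.80 to 6.38 TPM and ENST00000532293.1 at 0.0611 to 1.15 TPM over the 6 libraries.

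The lowest DESeq2 p among transcripts of the 10 genes belonged to DIS3L ENST00000530537.1, annotated as a decay target. Its TPM was 0.273, 0.796 and 0.739 in shCtrl, and it was listed at 0 in all 3 shPCBP1 libraries (DESeq2 adjusted p 2.74e-10). Its mean also lay under the filter on TPM, so limma did not test its level. The other calls of DESeq2 on counts were EXOSC2 ENST00000691926.1, lower (adjusted p 0.0148), EXOSC2 ENST00000688364.1, higher (0.0225), and EXOSC8 ENST00000684866.1 and ENST00000687944.1, both higher (0.00160 and 0.0357). Each of these was listed at 0 in all libraries of 1 group and reached at most 0.745 TPM in any library.

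The DIS3L2 transcript ENST00000417808.1, a 923-base model of 2 exons, had TPM of 0.731, 0.451 and 0.957 in shCtrl, was listed at 0 in shPCBP1 replicates 1 and 3, and had 0.0958 in replicate 2. Its mean lay under the filter on TPM, and its share within the gene had a limma adjusted p of 0.0621. DESeq2 on counts called it lower (adjusted p 0.00739). With coding transcripts only, that share passed (limma adjusted p 0.0440), the 1 of 16 shares tested there that did. The percent called over all genes in that fit was not counted, and the background of 0.782% belongs to the fit on all transcripts.

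All 60 annotated exons of the 10 genes that some transcript skips were tested, and 0 passed, beside 0.0512% of the 56679 exons tested overall. There were 6 of the 60 at an unadjusted p under 0.05 in limma, beside 5822 of all 56679. After the EXOSC10 exon, the lowest p-values among exons with non-overlapping groups belonged to EXOSC9. Its 138-base exon (chr4:121804622-121804759) had a PSI of 99.9% ± 0.118 in shCtrl and 99.2% ± 0.491 in shPCBP1 (SD, n = 3, limma adjusted p 0.342). Its 133-base exon (chr4:121809967-121810099) had 98.3% ± 0.111 and 97.6% ± 0.345 (SD, n = 3, limma adjusted p 0.402). Both were skipped rarely in either group, so the differences stayed under 1 point. A 51-base EXOSC9 exon (chr4:121816144-121816194), held only by ENST00000379663.7, differed by -5.67 points. Its PSI was 35.1% ± 3.22 in shCtrl and 29.5% ± 1.02 in shPCBP1 (SD, n = 3), lower in all shPCBP1 libraries (limma adjusted p 0.527). This exon was named after its values were seen.

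The genes that work with the exosome were taken from a list of 34, made of the other subunits, nuclear and cytoplasmic cofactors and other decay enzymes. Of these, 12 passed the DESeq2 test, 8 higher and 4 lower, a share close to the background of 31.2%. The median log2 fold change over the list was 0.071. Of the other ring and cap subunits 1 of 4 passed, of the nuclear cofactors 4 of 14, of the cytoplasmic cofactors 1 of 6 and of the other decay enzymes 6 of 10. All 12 had normalized counts that did not overlap between groups. The test that picked them used the same counts, so this adds no support.

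EXOSC7, the ring subunit that passed, fell from 6803, 6495 and 6468 normalized counts in shCtrl to 5862, 5735 and 5587 in shPCBP1 (log2 fold change -0.20, SE 0.0470, DESeq2 adjusted p 0.000146). Among nuclear cofactors, ZC3H18 and SRRT, which link capped RNA to the exosome, rose by 0.24 (SE 0.0452, DESeq2 adjusted p 1.05e-06) and 0.23 (SE 0.0481, DESeq2 adjusted p 1.78e-05) on the log2 scale. TENT4A, a poly(A) polymerase, rose by 0.17 (DESeq2 adjusted p 0.00401). RBM7, the RNA-binding part of the nuclear exosome targeting complex, fell by 0.19 (DESeq2 adjusted p 0.0157), and 4 of the 6 fits that left out a library lost that call, namely without replicate 1 or 3 of shCtrl and without replicate 1 or 2 of shPCBP1 (DESeq2 adjusted p 0.0663 to 0.143). TENT4A and RBM7 were also not called with transcript length offsets (DESeq2 adjusted p 0.230 and 0.106) or with coding transcripts only (0.0847 and 0.630). HBS1L, the cytoplasmic cofactor that passed, whose gene also encodes the bridge between the exosome and its cytoplasmic helicase complex, rose by 0.16 (DESeq2 adjusted p 0.000439).

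Among decay enzymes outside the exosome, both directions were seen. XRN1, the cytoplasmic exonuclease that works from the opposite end of RNA, fell from 4664, 5046 and 4786 to 3794, 3985 and 3991 normalized counts (log2 fold change -0.30, SE 0.0543, DESeq2 adjusted p 4.93e-07). PAN2, a deadenylase, fell by 0.38 (SE 0.0661, DESeq2 adjusted p 1.54e-07), the largest fall among the 12, and was not called with transcript length offsets (log2 fold change -0.14, DESeq2 adjusted p 0.338). The deadenylases CNOT7 and CNOT6 rose by 0.17 and 0.21 (DESeq2 adjusted p 0.000294 and 6.91e-05). DCPS, which breaks down the caps left after decay by the exosome, rose from 1833, 1881 and 1957 to 2362, 2445 and 2437 normalized counts (log2 fold change 0.35, SE 0.0668, DESeq2 adjusted p 1.78e-06). PNPT1, a mitochondrial exonuclease, rose by 0.12 (DESeq2 adjusted p 0.00932) but was not called by edgeR (adjusted p 0.0700).

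**Figure D5:**
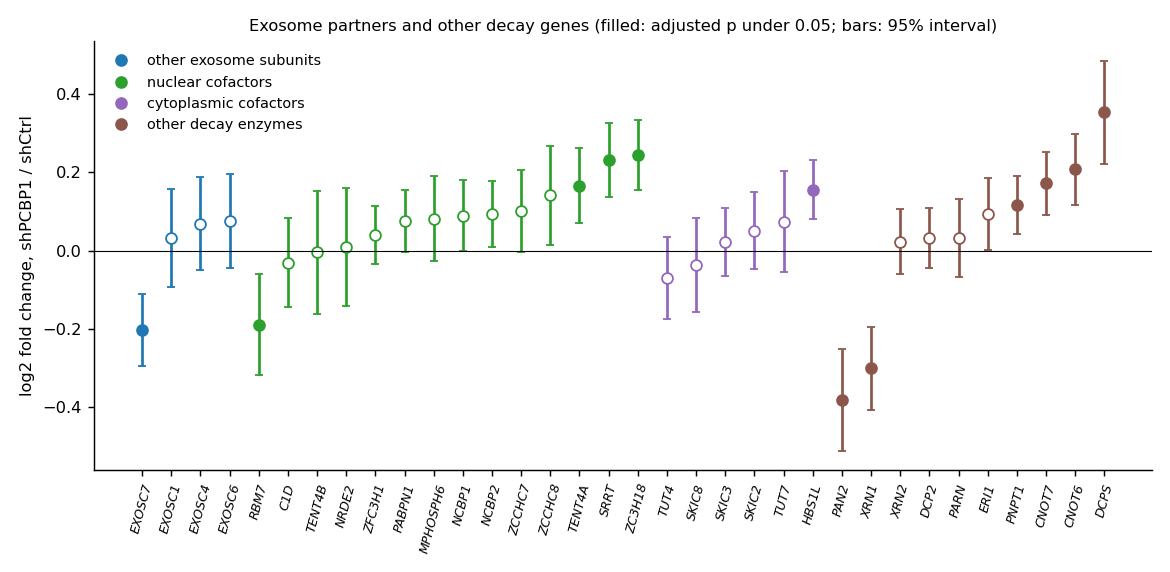
Log2 fold change (shPCBP1 against shCtrl) of the 34 exosome partners and other decay genes, with 95% intervals, grouped by role and coloured by group. Filled points passed an adjusted p under 0.05. They number 12, with PAN2 lowest at -0.38 and DCPS highest at 0.35.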

How the data were processed

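Poly-A RNA from K562 cells was sequenced in 2 groups of 3 libraries, grouped by the sample labels. The authors quantified reads with Salmon 1.10.2 (submitters' processing notes), and the deposited estimated counts per transcript were not normalized. The deposited TPM values are relative levels that Salmon scaled by effective transcript length. Of 252045 transcripts, 251612 matched GENCODE release 44 (GRCh38), and the remainder held 0.136% to 0.147% of counts and were left out. The annotation behind the index was not given in the sources used here.

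Counts were summed per gene, rounded, filtered at a summed count of 10 and tested with DESeq2 1.42.0 (Wald test, group as the only term). Transcripts, shares (5% to 95% of a gene of at least 1 TPM) and cassette exons (count minimum 10 for either form) were tested with limma 3.58.1 on log2 values with a pseudocount of 0.1 TPM, so fold changes of low transcripts are understated. An exon passed with a PSI difference over 5 points together with an adjusted p under 0.05. All tests were two-sided. The limma p-values were adjusted by Benjamini-Hochberg over the whole table, and the exact permutation tests of DIS3 over 5 quantities. DESeq2 adjusted by the same method over the features its own filters kept, which were 17095 of 28848 genes and 105847 transcripts. Junction reads were not used here. Scripts were tested on simulated data. Genes named were all 10 members, PCBP1 and the listed partners that passed. By rule, transcripts were named at 10% or more of their gene and exons as the long DIS3 exon and the 3 lowest p-values without overlap. Other DIS3 transcripts and exons, the 51-base EXOSC9 exon, and transcripts called only by DESeq2 on counts, were named after their values were seen. The members and lists were chosen with earlier results of these data known. Alternatives covered edgeR 4.0.16, TMM factors, length offsets, filters, pseudocounts, coding transcripts only, a replicate block and leaving out each library. R 4.3.3 and Python 3.11.15 were used. Some sequence is not reported here.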

Additional observations from a re-analysis of the deposited data

How the results depend on the processing

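Of the 10 member genes, the 0 called became 1 with TMM factors, 1 over genes with a mean count over 50, 2 with transcript length offsets and 2 with coding transcripts only, and ranged from 0 to 1 when single libraries were left out. Near-zero fold changes turned sign. With length offsets DIS3, DIS3L and EXOSC8 stood at log2 0.071, 0.070 and 0.077. With coding transcripts only DIS3L, EXOSC8 and MTREX stood at 0.11, 0.094 and -0.088. Leaving out single libraries gave ranges of -0.043 to 0.038 for DIS3, -0.077 to 0.044 for DIS3L, -0.087 to 0.0048 for DIS3L2 and -0.085 to 3.69e-05 for EXOSC8. The transcript count of 0 became 1 at a mean of at least 2 TPM and 10 with DESeq2 on counts, and the share count of 0 became 1 with coding transcripts only. The share of MTREX ENST00000506750.5 turned to 0.15 (log2 ratio) with estimated counts. The causes were not tested. The partner list kept 11 to 13 calls and the exons 0 throughout. The PSI difference of the long DIS3 exon was 4.69 to 5.49 points with coding transcripts or estimated counts, and 4.16 to 5.98 points with single libraries left out. Deviations of same-numbered libraries from their group means correlated at 0.0387, 0.016 and -0.0331 over 16153 genes. Whether such libraries were handled together was not given in the sources used here, and these values do not settle it. With the replicate block the member genes had 0 calls, the partner list 12 and the DIS3 difference was 5.09 points (exact permutation p 0.25, the smallest it allows), and no count of calls changed. Transcript estimates and 3 libraries a group limit precision, most for forms under 1 TPM.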
